A study of Homo sapiens with 8 samples.

Results

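Homologous recombination, the Fanconi anemia pathway and mismatch repair are represented here by 37 genes, listed by name, whose transcripts were measured in BE2C neuroblastoma cells. A gene was taken as measured where the platform annotation gave its symbol to a probe set, and the brightest probe set stood for a gene with several. This held for 33 of the 37, among 17687 genes tested in all. RAD54B, RBBP8, FANCA and FANCD2 had no probe set under their names and were not analysed here. Each of the 33 was brighter than the negative controls on all 8 arrays, so none was lost to a filter on low values.

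Homologous recombination repairs a broken chromosome by copying the sister chromatid. The ends are cut back to single strands, a recombinase filament is loaded on them with the help of the BRCA1 complexes and the recombinase's relatives, and the joined molecules are then taken apart. The Fanconi pathway unhooks crosslinks between DNA strands and hands the resulting break to recombination, while mismatch repair removes copying errors behind the replication fork. Many of these genes are transcribed mainly in S phase and are known targets of E2F, the transcription factor family held in check by RB, and of the complexes that act at CHR and CCAAT elements later in the cycle.

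BE2C is a human neuroblastoma cell line with MYCN amplification, and all 8 arrays come from this single line grown in standard medium with serum. The 4 groups of 2 arrays were cells given GSK-J4 for 24 h, cells given 0.1% DMSO for 24 h, cells transfected with KDM6B siRNA at 30 nM for 48 h, and cells transfected with control siRNA at 30 nM for 48 h. GSK-J4 is an ester that cells convert to an inhibitor of the KDM6 demethylases, which remove methyl groups from lysine 27 of histone H3. The labels write its dose as 2.5 mM whereas the methods give micromolar doses for cells, so the unit is uncertain, and they do not tell which KDM6B siRNA was used on an array. Drug and knockdown differ in duration and in vehicle, and each is compared only with its own control. The labels call the replicates biological.

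The values are log2 expression, so a difference of 1 is a factor of 2 in signal, and they cannot be used to rank genes against each other. Between 12982 and 13633 genes per array lay above background. All 8 measured neuroblastoma markers were above background on every array, MYCN, HAND2 and DBH among them, but so were all 5 measured mesenchymal and both measured Schwann markers. Of 4 leukocyte markers 2 to 3 per array exceeded background, and of 3 endothelial markers also 2 to 3, so that this threshold does not separate cell types. KDM6B, the gene targeted by the siRNA, stood at 7.22 and 5.76 on the KDM6B siRNA arrays, against 8.27 and 8.35 on the control siRNA arrays. The KDM6B siRNA arrays also lay further apart than any other pair, with 906 genes over 1 log2 unit apart, compared with 3 to 8 genes in the other groups. Values are therefore given array by array, replicate 1 before replicate 2. A lower signal per unit of RNA can come from fewer cells in S phase or from less transcript per cell, and these cannot be told apart in such samples.

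The promoters of the genes are shown first, because E2F is the factor that the study connects to KDM6B. RefSeq windows of 300 bases (GRCh38.p14, from 250 bases before the annotated start to 50 after it) were at hand for 31 of the 33 genes. DNA2 and FANCI had no entry. Both strands were searched for the E2F words TTTCCCGC, TTTGGCGC, TTTCGCGC and TTTGCCGC, for the CHR word TTTGAA and for CCAAT. At least 1 E2F word was found in 7 of 31 repair genes (22.6%), compared with 5.35% of all tested genes with a window and 52.8% of 36 genes of DNA replication that E2F is known to control. The CHR word was found in 19.4% of the repair genes and in 15.9% of all tested genes, and CCAAT in 51.6% and 42.3%. The 7 genes with an E2F word are EXO1, XRCC2, MSH6, TOPBP1, FANCC, MSH3 and PMS2. The stretch of 30 bases around the word is printed for 6 of them, with E2F words in capitals, and EXO1 follows with its whole window. They are shown because the differences of these genes after knockdown lay on both sides of 0.
XRCC2, chr7:152676102-152676131, minus strand: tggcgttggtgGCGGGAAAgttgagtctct
MSH6, chr2:47783137-47783166, plus strand: ctccccccagaTTTCCCGCcagcaggagcc
TOPBP1, chr3:133661930-133661959, minus strand: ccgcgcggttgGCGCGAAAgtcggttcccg
FANCC, chr9:95317863-95317892, minus strand: ccggggcttccGCGCGAAAccgggaacact
MSH3, chr5:80654534-80654563, plus strand: gcgcggtcaagTTTGGCGCGAAAttgtggc
PMS2, chr7:6009131-6009160, minus strand: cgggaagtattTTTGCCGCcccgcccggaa

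A gene counts as having a word if any of its windows holds one. For EXO1 1 of 2 windows held no E2F word, for FANCC 1 of 2 and for MSH6 3 of 4. In MSH3 a pair of words on opposite strands overlap and read as 1 run of capitals. FANCC held another word, TTTCCCGC, at 46 bases before its start. The whole window is given for EXO1, the gene with the lowest mean difference after knockdown, and for UBE2T, the gene with the lowest mean difference after GSK-J4, with E2F, CHR and CCAAT words in capitals. The EXO1 window holds the E2F word at 5 bases after the start. The UBE2T window holds no E2F word, the CHR word at 153 bases before the start and CCAAT at 124 and 73 bases before it.
EXO1, chr1:241847954-241848253, plus strand: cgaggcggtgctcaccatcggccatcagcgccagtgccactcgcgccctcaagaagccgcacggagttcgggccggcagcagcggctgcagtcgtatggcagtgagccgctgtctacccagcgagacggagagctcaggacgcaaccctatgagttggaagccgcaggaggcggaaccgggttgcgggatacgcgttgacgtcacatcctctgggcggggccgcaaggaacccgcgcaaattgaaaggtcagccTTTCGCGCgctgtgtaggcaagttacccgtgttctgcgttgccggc
UBE2T, chr1:202341887-202342186, minus strand: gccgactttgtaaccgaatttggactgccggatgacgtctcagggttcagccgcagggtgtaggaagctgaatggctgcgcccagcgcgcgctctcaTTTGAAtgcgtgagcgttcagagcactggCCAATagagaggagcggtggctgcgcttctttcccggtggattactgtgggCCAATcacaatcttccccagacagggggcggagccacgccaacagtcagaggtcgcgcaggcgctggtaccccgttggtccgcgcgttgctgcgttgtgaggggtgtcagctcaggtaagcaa

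The genes with an E2F word and those without were set side by side, without a test. Only exact matches were counted, so a window without a word may still hold a variant of it. With GSK-J4 the median difference was -0.14 over the 7 genes with a word and -0.25 over the 24 without. With KDM6B siRNA it was -0.43 over those with a word and -0.26 over those without. The 7 genes included EXO1 (-0.99) as well as PMS2 (0.28) after knockdown, and neither passed (limma adjusted p = 0.293 and 0.36). EXO1 lay at -0.25 on KDM6B siRNA replicate 1 and -1.73 on replicate 2, against the control siRNA mean. A word in the window thus went with mean differences on both sides of 0, none of which passed.

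The first question was how 24 h of GSK-J4 altered the repair genes relative to DMSO. Most of them lay lower by a small amount: the median difference was -0.23 over the 33 genes, against -0.02 over all genes tested, and 27 of 33 were below 0. DNA2, the helicase and nuclease that extends resection at broken ends, fell by 0.59 (SE 0.12, 95% confidence interval -0.88 to -0.31, limma adjusted p = 0.0428), a factor of 1.51. It was the only 1 of the 33 to pass in this direction, 3.03% against 1.41% of all genes, and 0 of the 33 passed as higher, against 2.29% of all genes. Both GSK-J4 arrays lay below both DMSO arrays for 21 of 33 (63.6%, compared with 28.6% of all genes) and above both for 5 (15.2%, compared with 25.5%). At an unadjusted p under 0.05, 5 genes were lower and 1 higher, where 8.42% of all genes were lower and 8.59% higher. The call of DNA2 depended on the fit. Many of the settings tried alter only the SE or p-value, so the sign of the difference could not change in them. Another averages probe sets, which repeats the fit described, as DNA2 has only 1. Its adjusted p ranged from 0.00694 to 0.284 over 17 other settings, passing in 8 of them, and its difference was negative in all 17. It was lost without either DMSO array (adjusted p = 0.266 and 0.148 without replicate 1 or 2), without either GSK-J4 array (adjusted p = 0.284 and 0.208) and without either control siRNA array (adjusted p = 0.106 for both).

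The second question was how the same genes stood 48 h after KDM6B was targeted by siRNA. The median difference was -0.32 over the 33 genes, against 0.01 over all genes, with 25 of 33 below 0. By limma 0 of 33 passed in either direction, where 0.492% of all genes passed as lower and 0.113% as higher, and DNA2 came nearest (-0.71, SE 0.12, adjusted p = 0.0548). At an unadjusted p under 0.05, 12 genes (36.4%) were lower and 0 higher, compared with 7.85% and 6.78% of all genes. The t-test named in the methods called 0 after adjustment and 4 unadjusted, 3 of them lower, where 3.23% of all genes were lower and 3.88% higher. For 18 of 33 the knockdown arrays were both below both control siRNA arrays (54.5%, compared with 19.7% of all genes) and for 5 they were above (15.2%, compared with 22.2%).

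**Figure D1:**
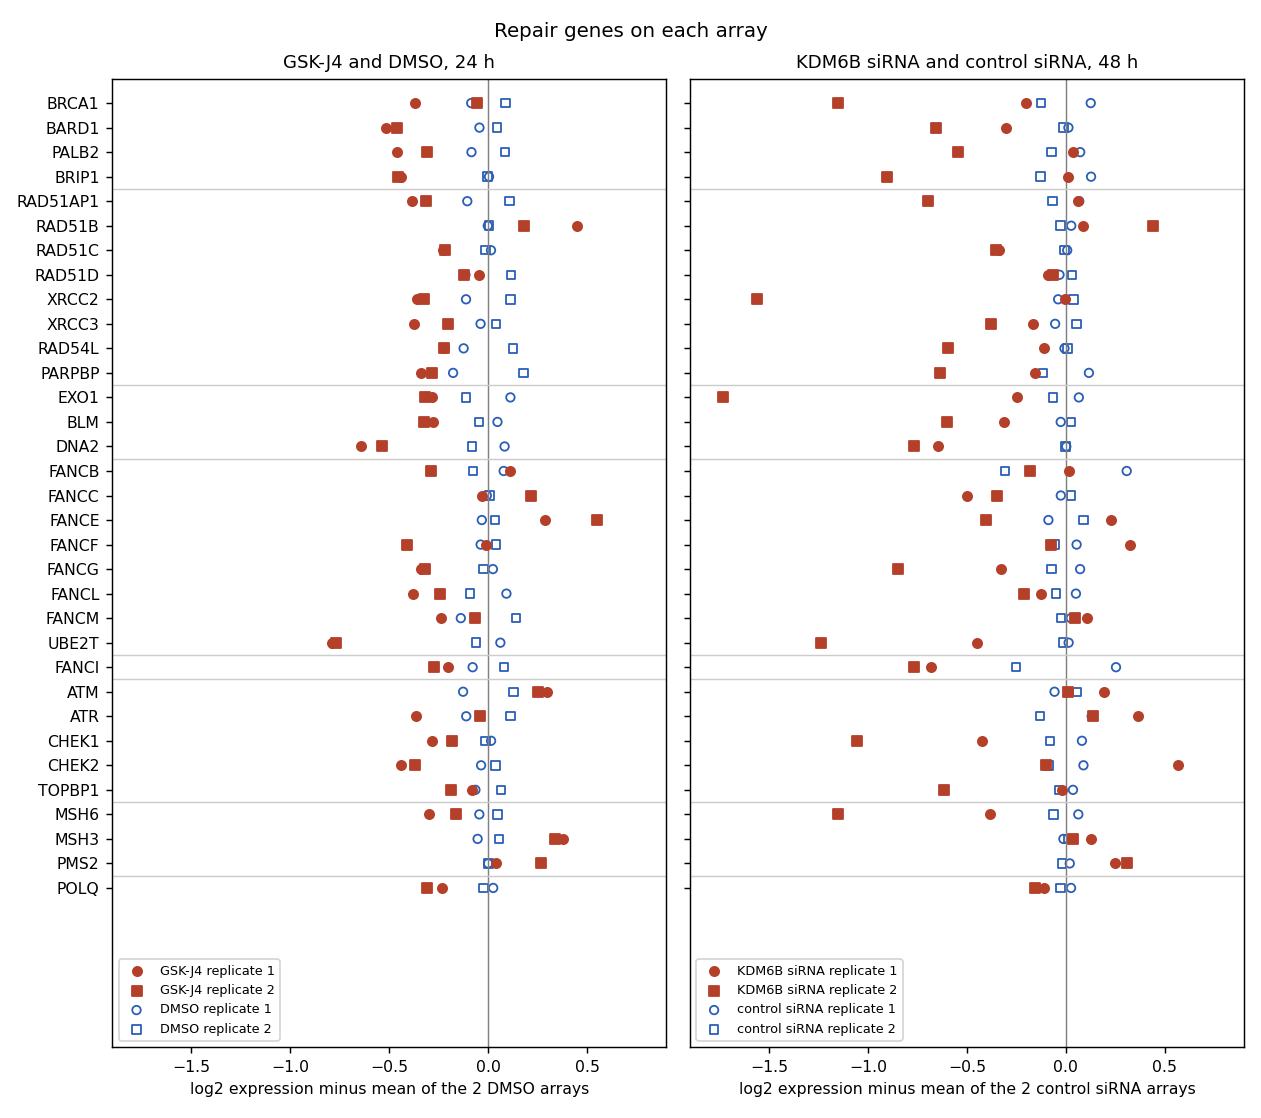
Log2 expression of each of the 33 repair genes on each array, minus the mean of the control arrays of its comparison (x axis, log2 units; rows are genes, with lines between groups of genes by role). Filled red marks are GSK-J4 (left) or KDM6B siRNA (right) arrays and open blue marks their DMSO or control siRNA arrays; most red marks lie left of 0, closely spaced with GSK-J4 and widely spaced with KDM6B siRNA.

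The KDM6B siRNA arrays differed in 1 direction for most of these genes. Replicate 2 lay below replicate 1 for 29 of the 33 (87.9%), compared with 48.8% of all genes, and the median gap was -0.35. Gaps over 1 log2 unit were about as frequent as elsewhere, at 6.06% of the repair genes and 5.12% of all genes. Among 41 measured replication genes 80.5% were also lower on replicate 2, with a median gap of -0.47. Set against the control siRNA mean, the median was -0.11 on replicate 1, where 20 of 33 lay below it, and -0.54 on replicate 2, where 27 did. Replicate 2 is also the array with the lower KDM6B level, 5.76 against 7.22 on replicate 1, and the part of the knockdown level in this spread was not tested. In the fit without KDM6B siRNA replicate 1, 17 of 33 passed and all 17 were lower, where 10.3% of all genes passed as lower. In the fit without KDM6B siRNA replicate 2, DNA2 passed as lower (-0.65, adjusted p = 0.0267) and CHEK2 as higher (0.57, adjusted p = 0.0456), where 3.84% of all genes passed as lower and 1.62% as higher. In these fits the remaining array is taken to vary like the other groups, and removing either array also narrows the spread shared by all groups, so that 6 repair genes passed with GSK-J4 in both: BARD1, BRIP1, DNA2, UBE2T and CHEK2 as lower, where 6.88% of all genes did, and MSH3 as higher, where 7.46% did.

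**Figure D2:**
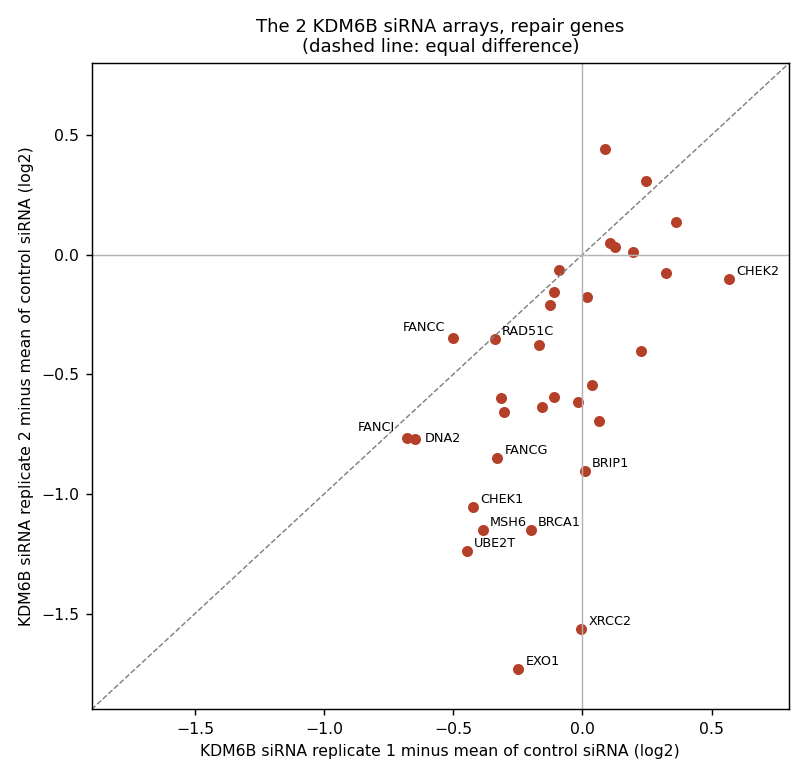
Each point is 1 repair gene, with its difference from the control siRNA mean on KDM6B siRNA replicate 1 (x axis, log2) and replicate 2 (y axis, log2). Most points lie below the dashed line of equal difference; XRCC2 and EXO1 are the furthest from it, whereas DNA2, FANCI and RAD51C lie close to it.

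Of the 3 measured nucleases and helicases that process broken ends and joined molecules, DNA2 with GSK-J4 was the only call, and all 3 had negative differences in both comparisons. DNA2 stood at 6.31 and 6.42 with GSK-J4, against 7.04 and 6.87 with DMSO. It stood at 5.97 and 5.85 with KDM6B siRNA, against 6.62 and 6.61 with control siRNA. In both comparisons the groups were well apart and replicates lay within 0.17 of each other. EXO1, the exonuclease that shares resection with DNA2 and also acts in mismatch repair, read 8.86 and 8.83 with GSK-J4, against 9.26 and 9.04 with DMSO (-0.30, SE 0.39, adjusted p = 0.771). After KDM6B siRNA it read 8.82 and 7.33, against 9.13 and 9.00 with control siRNA. The knockdown difference of -0.99 (SE 0.39, adjusted p = 0.293) was thus carried by replicate 2, and without that array it was -0.25. BLM, the helicase that dissolves crossed junctions, had differences of -0.30 with GSK-J4 (adjusted p = 0.303) and -0.46 after knockdown (adjusted p = 0.175), each without overlap of the groups.

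All 4 measured genes of the BRCA1 complexes were below their controls in both comparisons. BRCA1, the ubiquitin ligase that opens the way for resection, read 6.94 and 7.25 with GSK-J4, against 7.22 and 7.40 with DMSO, and the groups overlapped (-0.21, SE 0.28, adjusted p = 0.778). After knockdown BRCA1 read 7.21 and 6.26, against 7.54 and 7.29 with control siRNA, so that replicate 2 alone stood far below (-0.67, SE 0.28, adjusted p = 0.321). BARD1, its obligate partner, was tighter: 6.81 and 6.86 with GSK-J4, against 7.28 and 7.37 with DMSO, and 7.05 and 6.70 with KDM6B siRNA, against 7.37 and 7.34 with control siRNA. Its differences were -0.49 (SE 0.14, adjusted p = 0.12) and -0.48 (SE 0.14, adjusted p = 0.18). BRIP1, the helicase bound by BRCA1, read 7.08 and 7.07 with GSK-J4, against 7.53 and 7.52 with DMSO. The KDM6B siRNA arrays read 7.30 and 6.39, against 7.42 and 7.17 with control siRNA, and its mean difference of -0.45 became 0.01 without replicate 2. PALB2, the bridge from BRCA1 to the recombinase loader, lay lower on average, by -0.38 with the drug and -0.25 after knockdown (adjusted p = 0.372 and 0.613).

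Of the 8 measured genes that assist or resemble the recombinase, 7 were below control in both comparisons and RAD51B was above it in both. RAD51B read 5.83 and 5.56 with GSK-J4, against 5.37 and 5.38 with DMSO. It read 5.39 and 5.74 with KDM6B siRNA, against 5.33 and 5.28 with control siRNA. Neither of its differences, 0.31 and 0.26, passed (adjusted p = 0.366 and 0.49). RAD51C, its partner in a paralog complex, ran the other way with little spread: 9.84 and 9.85 with GSK-J4, against 10.08 and 10.05 with DMSO, and 9.66 and 9.65 with KDM6B siRNA, against 10.01 and 10.00 with control siRNA. The size of these differences, -0.23 and -0.35, was small and neither passed (adjusted p = 0.358 and 0.207). XRCC2, another paralog, stood out for its gap: 9.00 and 7.44 with KDM6B siRNA, against 8.97 and 9.05 with control siRNA, where replicate 1 did not differ from control and replicate 2 was the lowest of all arrays. With GSK-J4 XRCC2 read 8.55 and 8.59, against 8.80 and 9.03 with DMSO (-0.34, SE 0.40, adjusted p = 0.748). The other genes of this group, XRCC3, RAD51D, RAD54L, which remodels the filament, and the recombinase regulators RAD51AP1 and PARPBP, had differences of -0.08 to -0.35 with GSK-J4 and -0.08 to -0.40 after knockdown, and none passed. POLQ, the polymerase of the alternative end joining route, differed by -0.27 and -0.13 (adjusted p = 0.272 and 0.657).

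**Figure D3:**
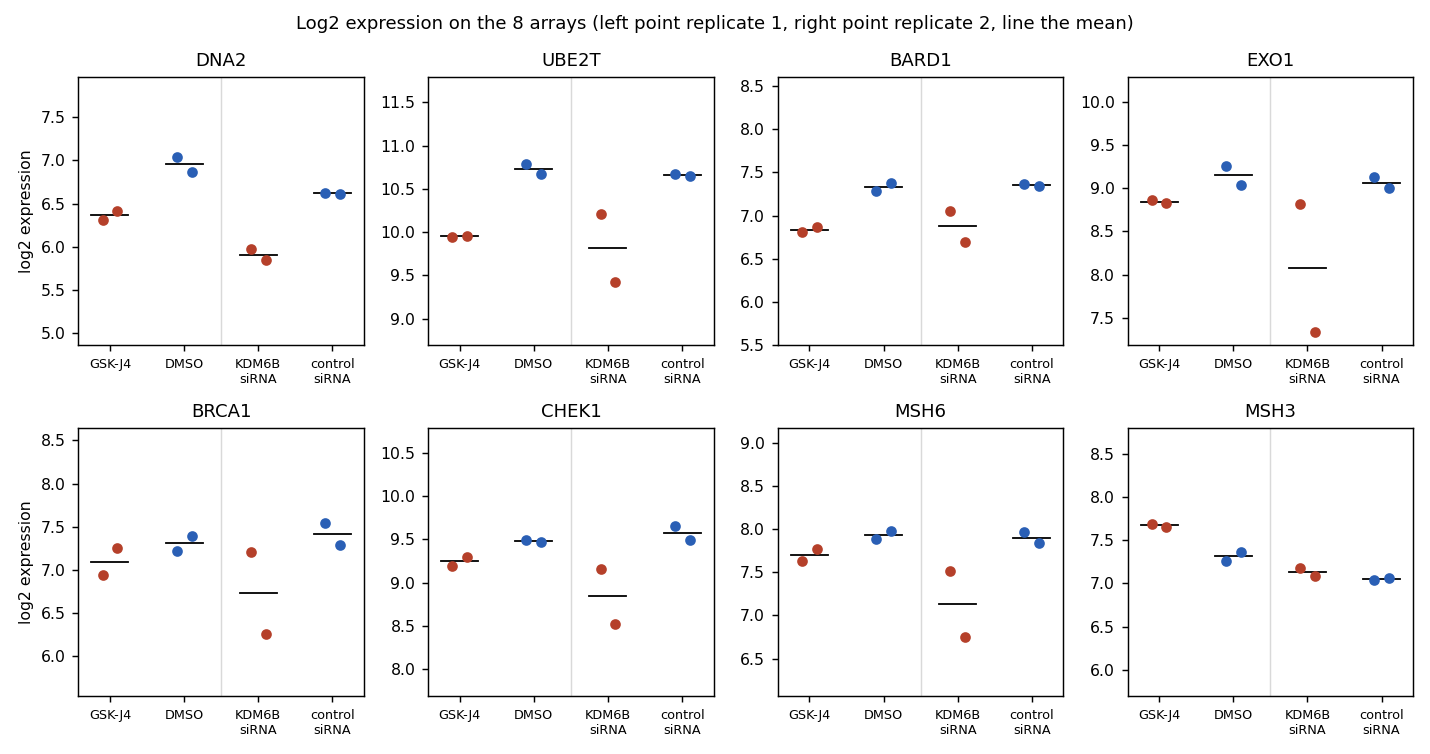
Log2 expression (y axis) of 8 repair genes on the 8 arrays, with the left point of each group replicate 1, the right point replicate 2 and the line their mean; each y axis spans the same number of log2 units. DNA2 shows close replicates at a lower level in both the GSK-J4 and the KDM6B siRNA group, EXO1, BRCA1 and MSH6 show 1 low KDM6B siRNA array, and MSH3 is highest with GSK-J4.

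In the Fanconi pathway the ubiquitin-conjugating enzyme and its substrate lay below control in both comparisons, without passing, and the core ligase genes lay on both sides. UBE2T, the enzyme that feeds ubiquitin to the core complex, read 9.94 and 9.96 with GSK-J4, against 10.79 and 10.67 with DMSO, the lowest mean difference of the 33 genes (-0.78, SE 0.23, adjusted p = 0.117). After knockdown UBE2T read 10.22 and 9.43, against 10.68 and 10.65 with control siRNA (-0.84, SE 0.23, adjusted p = 0.147). The groups of UBE2T were apart in both comparisons, but the wide KDM6B siRNA pair enters the SE of both. FANCI, which is ubiquitinated by this route, read 7.64 and 7.57 with GSK-J4, against 7.76 and 7.92 with DMSO. After knockdown FANCI read 7.04 and 6.95, against 7.97 and 7.46 with control siRNA (-0.72, SE 0.17, adjusted p = 0.116), and here the wider pair was the control. Of the 7 other measured Fanconi genes FANCG, a scaffold of the core, differed by -0.33 and -0.59 (adjusted p = 0.396 and 0.176). FANCL, its ligase subunit, had differences of -0.31 with the drug and -0.17 after knockdown. FANCE, which binds the substrate, read 5.70 and 5.96 with GSK-J4, against 5.38 and 5.45 with DMSO, and 5.74 and 5.12 with KDM6B siRNA, against 5.43 and 5.60 with control siRNA. It was the gene with the highest mean difference after GSK-J4 (0.42, SE 0.21, adjusted p = 0.359), and after knockdown its arrays lay on either side of control (-0.09). FANCC had differences of 0.09 with the drug and -0.43 after knockdown, and those of FANCB, FANCF and FANCM spanned -0.21 to -0.09 and -0.08 to 0.12.

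The checkpoint genes lay on both sides of their controls, and none of the 5 passed. CHEK1, the kinase that ATR activates at stalled forks, read 9.20 and 9.30 with GSK-J4, against 9.49 and 9.47 with DMSO (-0.23, SE 0.20, adjusted p = 0.627). With KDM6B siRNA it read 9.15 and 8.53, against 9.66 and 9.50 with control siRNA (-0.74, SE 0.20, adjusted p = 0.145), both arrays being below both controls. CHEK2, the kinase downstream of ATM, read 6.09 and 6.16 with GSK-J4, against 6.49 and 6.57 with DMSO (-0.41, adjusted p = 0.378). With KDM6B siRNA it read 7.00 and 6.33, against 6.52 and 6.34 with control siRNA, so replicate 1 was high and replicate 2 level with control (0.23, adjusted p = 0.668). CHEK2 has related pseudogenes whose signal its probe set may share, which was not checked. ATM, the sensor of broken ends, read 9.31 and 9.27 with GSK-J4, against 8.89 and 9.14 with DMSO (0.27, SE 0.14, adjusted p = 0.374). With KDM6B siRNA ATM read 9.31 and 9.12, against 9.06 and 9.17 with control siRNA, and the groups overlapped. ATR differed by -0.20 and 0.25, and its activator TOPBP1 by -0.14 and -0.32, and none of these passed.

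None of the 3 mismatch repair genes among the 33 passed in either comparison. MSH6, which forms the dimer that recognises single mispairs, read 7.63 and 7.77 with GSK-J4, against 7.89 and 7.98 with DMSO (-0.23, SE 0.22, adjusted p = 0.688). With KDM6B siRNA it read 7.51 and 6.75, against 7.96 and 7.83 with control siRNA (-0.77, SE 0.22, adjusted p = 0.175), both arrays low and replicate 2 lower. MSH3, which forms the alternative dimer for larger loops, read 7.69 and 7.65 with GSK-J4, against 7.26 and 7.37 with DMSO (0.36, SE 0.12, adjusted p = 0.155). After knockdown MSH3 read 7.18 and 7.09, against 7.04 and 7.07 with control siRNA (0.08). PMS2, the endonuclease of the pathway, was above control on both arrays of both comparisons by 0.15 and 0.28 on average (adjusted p = 0.62 and 0.36). PMS2 has many near-identical pseudogene copies, so its values are uncertain as to the gene.

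Drug and knockdown used no array in common, so their differences can be set side by side. Both were negative for 23 of the 33 genes (69.7%, compared with 28.3% of all genes) and both positive for 4, RAD51B, ATM, MSH3 and PMS2. Across the 33 genes the differences correlated with Pearson's r = 0.564 and Spearman's rho = 0.559, and across all genes with r = 0.233 and rho = 0.214. These are descriptions over genes measured on the same arrays, which are not independent of each other. The difference between the effects was tested in the same fit, and 0 of 33 passed, where 0.922% of all genes did. At an unadjusted p under 0.05 there was 1 of 33 (3.03%), where 12.1% of all genes were. This was FANCC, with 0.52 (SE 0.19, 95% confidence interval 0.09 to 0.94, adjusted p = 0.316). CHEK2 had the widest negative value (-0.64, 95% confidence interval -1.31 to 0.03, adjusted p = 0.438) and EXO1 the widest positive (0.69, 95% confidence interval -0.58 to 1.95, adjusted p = 0.702). For DNA2 the interval of the difference ran from -0.29 to 0.52, and for UBE2T from -0.67 to 0.80. Without KDM6B siRNA replicate 1, 6 genes passed as higher, BRCA1, XRCC2, EXO1, FANCE, CHEK1 and MSH6, where 8.17% of all genes did. Without replicate 2, CHEK2 alone passed, as lower (-0.97, adjusted p = 0.0144), where 1.91% of all genes did.

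**Figure D4:**
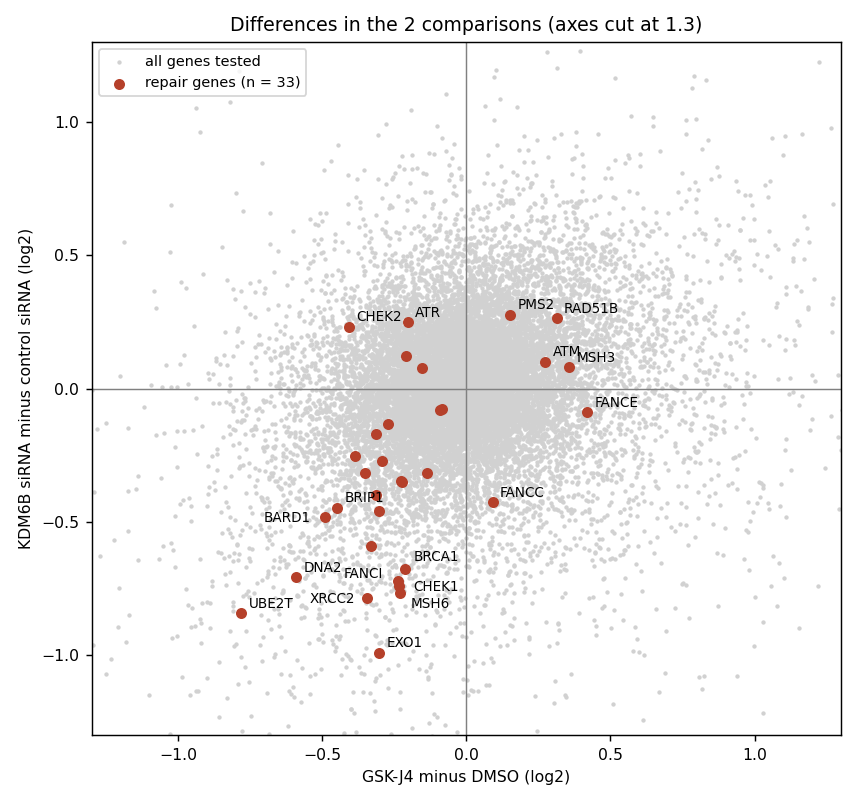
Difference of each gene with GSK-J4 (x axis, log2, minus DMSO) and with KDM6B siRNA (y axis, log2, minus control siRNA); red points are the 33 repair genes and grey points all genes tested, with axes cut at 1.3. Of the red points 23 lie below 0 on both axes, with UBE2T and DNA2 low on both axes, and EXO1 lowest on the y axis.

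Other genes of the same pathways, 57 by name and 52 measured, had medians closer to those of all genes. Their median difference was -0.14 with GSK-J4 and -0.07 with KDM6B siRNA. Of all genes 1.41% passed as lower and 2.29% as higher with GSK-J4. After KDM6B siRNA 0.492% of all genes passed as lower and 0.113% as higher. RMI1, a partner of BLM in dissolving junctions, fell with GSK-J4 (-0.94, SE 0.16, adjusted p = 0.0209) and was the only 1 of the 52 to pass. After knockdown 3 fell and 0 rose: CLSPN, the adaptor through which ATR activates CHEK1 (-1.55, SE 0.25, adjusted p = 0.0485), PSMC3IP, a cofactor of strand exchange (-1.20, SE 0.20, adjusted p = 0.0496), and USP1, which removes the ubiquitin of the Fanconi substrates (-0.75, SE 0.12, adjusted p = 0.0413). Genes of DNA replication, 41 measured, were lower than the repair genes in both comparisons, with medians of -0.43 and -0.69. With GSK-J4 6 of the 41 fell (1.41% of all genes), with MCM10 at -0.95, HELLS at -0.86 and POLE2 at -0.80. With KDM6B siRNA 7 of the 41 fell (0.492% of all genes), with RRM2 at -1.26, HELLS at -1.23 and CHAF1B at -1.05. Replicate 2 lay below replicate 1 for 33 of the 41, and their medians were -0.41 on KDM6B siRNA replicate 1 and -0.96 on replicate 2. Whether the lists differ from each other was not tested. The lists were chosen with earlier results of these data known, so the distance between their medians may reflect that choice.

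**Figure D5:**
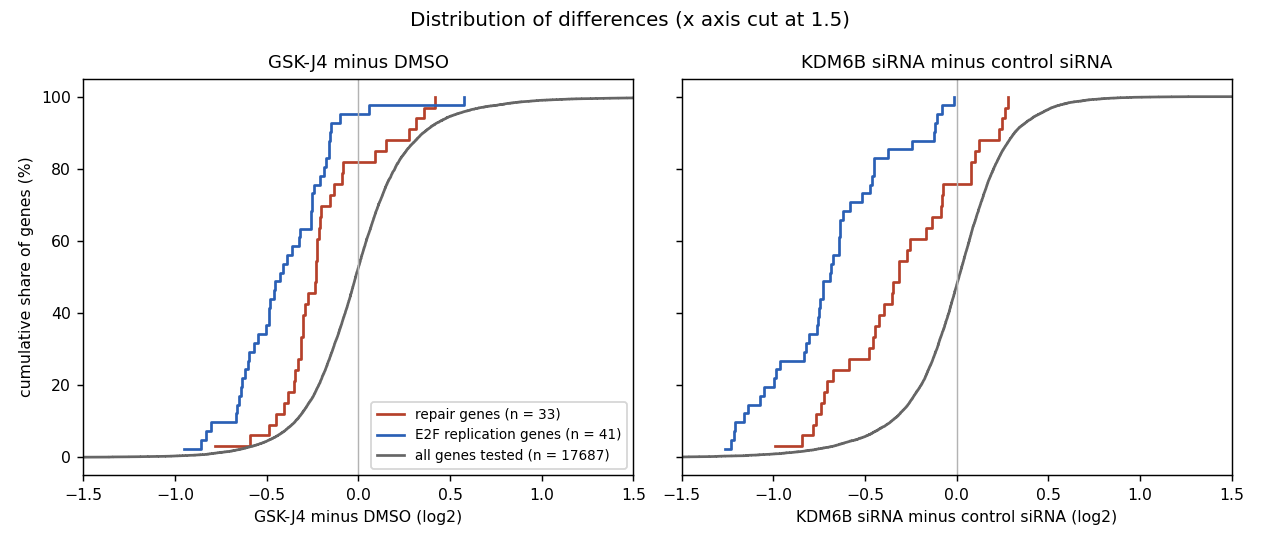
Cumulative share of genes (y axis, percent) by log2 difference (x axis, cut at 1.5) for the 33 repair genes (red), the 41 DNA replication genes (blue) and all 17687 genes (grey). In both panels the red line lies left of the grey one over most of its length, with the blue line further left.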

How the data were processed

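BE2C RNA was hybridised to 8 Affymetrix Clariom S human arrays, 2 per group. The deposited table holds log2 expression values per probe set, made by the authors. The medians of the 8 arrays lay between 6.16 and 6.197, so the arrays were close to a common scale. GCOS is named in the submitters' processing notes, and for background correction, normalization and summarization the entry is: not given in the sources used here. Such values would not show a change in the total RNA of a cell. The number of arrays limits the precision. Of 24351 probe sets, 17709 had a gene symbol, updated by gene ID through RefSeq (GRCh38.p14), and 17687 genes were tested. Background was the 95th percentile of 612 negative control probe sets.

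The tests were two-sided and came from limma (version 3.58.1, under R 4.3.3), with lmFit and eBayes run across all genes. All 8 arrays entered a single fit with 4 residual degrees of freedom and 4.18 from the prior, and p-values were adjusted by Benjamini-Hochberg with a threshold of 0.05. The same code was tested on simulated data for the GSK-J4 comparison. It recovered 66 of 100 genes changed by 1 log2 unit and 93 of 100 changed by 2. The mean differences of the repair genes were all smaller than 1 in size, so a gene that did not pass may still have changed. The repair genes and the other lists were chosen with earlier results of these data known. Array values are given for BRCA1, CHEK1, ATM, genes that passed and the 6 with the largest difference per comparison; the others shown were chosen after their values were seen. The alternatives were array weights, an intensity trend, the 4 arrays of each comparison fitted alone, median centring, quantile normalization, the methods' t-test, a filter on dim probe sets, the mean of probe sets, a replicate block and each array left out. Motifs were searched in RefSeq promoter windows with Python 3.11.15.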

Additional observations from a re-analysis of the deposited data

How the results depend on the processing

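The count of repair genes that passed with GSK-J4, 1 in the fit described, became 4 with the 4 arrays of that comparison alone, all lower (4.92% of all genes), and 3 with array weights, all lower (5.64% of all genes). It became 0 with an intensity trend, with a replicate block and with the methods' t-test after adjustment, and 11 with that test unadjusted (18.8% of all genes). With KDM6B siRNA the count of 0 became 1 with the filter on dim probe sets, DNA2 (adjusted p = 0.0466; 1.1% of all genes), and 4 with the methods' t-test unadjusted (7.11% of all genes). With 1 array left out the counts ranged from 0 to 6, from 0 to 17 and, for the difference between the effects, from 0 to 6. The median over the repair genes ranged from -0.28 to -0.18 with GSK-J4, from -0.54 to -0.11 with KDM6B siRNA, and from -0.11 to 0.30 for the difference between the effects (0.09 with all arrays), which was negative without KDM6B siRNA replicate 2.

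For 13 named repair genes, 18 of 663 values changed sign, and none of these passed. Many of the 663 could not change sign, since only the normalizations and a left-out array of the comparison alter a difference. The other settings alter its SE or p-value alone. With median centring the difference between the effects became 0.0137 for BARD1 and 0.0198 for BRIP1. With 1 array left out that difference ranged from -0.19 to 0.17 for BARD1, from -0.46 to 0.45 for BRIP1, from -0.013 to 0.94 for BRCA1, from -0.33 to 0.46 for UBE2T, from -0.0552 to 1.43 for EXO1 and from -0.34 to 1.22 for XRCC2. The KDM6B siRNA difference ranged from -0.90 to 0.0102 for BRIP1, from -0.10 to 0.57 for CHEK2 and from -0.40 to 0.23 for FANCE.

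Over all genes 654, 107 and 163 passed in the 3 comparisons. The counts became 1908 and 0 with 4 arrays, 2116 and 27 with array weights, 3324 and 1257 with the methods' t-test unadjusted and 0 and 0 after adjustment. With 1 array left out they ranged from 55 to 2537, from 0 to 3518 and from 17 to 2486. With the replicate number as a block they were 439, 35 and 81. Deviations of arrays with the same number correlated at 0.0879 for GSK-J4 and DMSO and at -0.0357 for the siRNA groups, so the numbers were not taken as pairs. The cause of these shifts was not tested. With 2 arrays a group and a shared spread, the 95% interval of a GSK-J4 difference reached 0.398 to either side for the median repair gene, and over 0.5 for 8 of 33.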

Other observations

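Repair pathways outside recombination were counted in the same fit, in which 17.0% of all genes with GSK-J4 and 14.6% with KDM6B siRNA were at an unadjusted p under 0.05. After adjustment 1.41% of all genes passed as lower and 2.29% as higher with GSK-J4. With KDM6B siRNA the adjusted shares were 0.492% and 0.113%. Of 16 genes of base excision repair 0 passed in either comparison by limma (4 and 5 at an unadjusted p under 0.05), with medians of -0.17 with GSK-J4 and -0.19 with KDM6B siRNA. Of 11 measured genes of non-homologous end joining, which rejoins broken ends without a template, 0 passed (3 and 1 unadjusted), with medians of -0.04 and -0.10. Of 15 measured genes of nucleotide excision repair GTF2H5, a small subunit of TFIIH, fell with GSK-J4 (-0.59, SE 0.13, adjusted p = 0.0447), and 5 were at an unadjusted p under 0.05. That list's median was -0.13 with GSK-J4 and 0.13 with KDM6B siRNA, where 0 passed and 2 did unadjusted.

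Of 13 measured p53 targets of the damage response 3 rose with GSK-J4 (2.29% of all genes) and 0 fell (1.41% of all genes). They were SESN2, a stress-induced inhibitor of mTORC1 (1.40, SE 0.16, adjusted p = 0.00498), the death receptor gene TNFRSF10B (1.29, SE 0.16, adjusted p = 0.00798) and CDKN1A, which encodes p21 (1.15, SE 0.21, adjusted p = 0.0246). SESN2 and TNFRSF10B are also known targets of the ATF4 and CHOP stress response. The list's median was 0.24 with GSK-J4 and -0.26 with KDM6B siRNA, where 0 passed by limma and 4 did unadjusted.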
